A study of Mus musculus with 32 samples.

Results

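The forkhead genes encode transcription factors that share 1 DNA-binding domain. They were taken from the RNA-seq tables by symbol, as all names made of Fox, a letter from a to s and a number, which gave 44 genes of 24028 symbols. No measured value entered this choice. Levels were FPKM, which counts fragments relative to transcript length and to all mapped fragments, 1 value per gene in each library.

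The study asked how the loss of Polycomb repressive complex 2 (PRC2) alters DNA methylation valleys (DMVs), the long stretches free of DNA methylation that cover many developmental genes, in mouse embryonic stem cells (mESCs). mESCs are pluripotent cells derived from the early mouse embryo. One group was WT mESCs and the other was mESCs of the genotype Eed-/-, which lack both functional copies of the gene for EED, the PRC2 subunit that binds trimethylated H3K27 and stimulates the methyltransferase. Each group had 1 RNA-seq library. The labels give the strain TT2 for both libraries, while Eed-/- samples of other assays of the series carry the strain label l7Rn5-3354SB. Both cultures grew in medium with serum and LIF on gelatin, without a further treatment in the labels, and the kind of mutation in the Eed gene was not given in the sources used here. Eed RNA itself stood at 63.0 FPKM in WT and 70.9 FPKM in the other library, so the RNA level did not mark the genotype, and for this reason the sample is named the library labelled Eed-/- throughout. The study also describes H3K27me3 blots and ChIP-seq as checks of the loss of EED, which were not analysed here.

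Forkhead factors bind DNA through a winged-helix fold, and some of them, above all the FOXA proteins, open compact chromatin ahead of other regulators. A few members act in pluripotent cells and in the earliest signals of the embryo, several are made in nearly all cells and control growth, metabolism and the cell cycle, and many are switched on only in 1 lineage. Members of the last kind are held silent in stem cells, and PRC2 with its mark H3K27me3 covers many such genes.

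The WT library held about 7240000 fragments and the library labelled Eed-/- about 6450000, as recovered from the spacing of low values. Converted with these depths, low values came within 0.1 of whole fragments in 79.9% of 748 cases in WT and in 81.2% of 847 in the other sample. With 1 library per genotype no difference could be tested, and the 95% intervals given with changes cover counting error only. They are exact binomial (Clopper-Pearson) intervals of the share of fragments, carried onto the scale of the changes with the total held fixed. Where 1 library has 0 fragments, the end of the interval away from 0 is not a true limit. All 10 markers of embryonic stem cells were measured, with a summed level of 1592 FPKM in WT and 1764 FPKM in the library labelled Eed-/-. Zfp42, Dppa5a, Nanog and Klf4 were higher in FPKM as deposited, while Pou5f1, Sox2, Utf1, Lin28a, Tdgf1 and Esrrb were lower. Among markers of other cells, the 12 of primitive and parietal endoderm summed to 120 and 157 FPKM. Lama1, Col4a1 and Col4a2 were at least 2-fold higher, and Sox17 was at 0 in WT. Sparc, at 71.9 and 67.9 FPKM, and Lamb1, at 29.6 and 24.8 FPKM, made most of these sums and were not higher in FPKM. The 9 trophoblast markers summed to 62.1 and 20.01 FPKM, with Tfap2c and Krt18 at least 2-fold lower, and Elf5 and Prl3d1 at 0 in both libraries. Tfap2c made 39.8 and 9.21 FPKM of these sums. Hand1, at 0 and 0.541 FPKM, and Gata3, at 0.365 and 0.664 FPKM, went the other way. The 7 mesoderm markers summed to 2.38 and 4.37 FPKM with Kdr past 2-fold higher. Mesp1, at 0.766 and 0.172 FPKM, and Mixl1, at 0.590 and 0.367 FPKM, went the other way. The 8 neural markers summed to 107 and 89.1 FPKM with none past 2-fold. Tubb3 made 95.4 and 74.0 FPKM of these neural sums, while Nes was at 6.97 and 10.8, Map2 at 1.17 and 2.07, and Sox1 at 1.94 and 0.924 FPKM. The 9 fibroblast markers summed to 2.15 and 7.52 FPKM with Thy1 past 2-fold higher and Twist2 and Dcn at 0 in both. Without Thy1, the other 8 fibroblast markers summed to 1.17 and 0.546 FPKM. In bulk RNA, fewer cells of a type and less RNA per cell cannot be told apart. The part of these marker shifts in the results on forkhead genes was not tested.

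The 250 bases upstream of 4 start sites (RefSeq, GRCm38.p6) are shown for their CpG dinucleotides, printed in capitals, since DMVs lie over CpG-rich start sites. Foxd3 had the largest difference upward among expressed forkhead genes, Foxd1 had reads in the library labelled Eed-/- alone, Foxo3 was higher in that library and Foxn3 was lower. All run 5′ to 3′ on the strand of the gene and end 1 base before the start site.
Foxd3 (chr4:99656049-99656298, plus strand): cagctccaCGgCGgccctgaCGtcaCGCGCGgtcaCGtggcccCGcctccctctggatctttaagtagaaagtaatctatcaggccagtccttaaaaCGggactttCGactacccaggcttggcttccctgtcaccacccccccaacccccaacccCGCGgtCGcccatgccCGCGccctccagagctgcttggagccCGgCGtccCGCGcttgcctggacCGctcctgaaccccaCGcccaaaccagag
Foxd1 (chr13:98353995-98354244, plus strand): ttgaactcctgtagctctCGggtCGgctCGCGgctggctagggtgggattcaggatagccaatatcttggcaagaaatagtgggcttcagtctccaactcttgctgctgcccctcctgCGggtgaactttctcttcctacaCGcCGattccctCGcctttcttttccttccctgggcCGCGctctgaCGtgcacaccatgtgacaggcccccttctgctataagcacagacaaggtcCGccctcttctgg
Foxo3 (chr10:42276696-42276945, minus strand): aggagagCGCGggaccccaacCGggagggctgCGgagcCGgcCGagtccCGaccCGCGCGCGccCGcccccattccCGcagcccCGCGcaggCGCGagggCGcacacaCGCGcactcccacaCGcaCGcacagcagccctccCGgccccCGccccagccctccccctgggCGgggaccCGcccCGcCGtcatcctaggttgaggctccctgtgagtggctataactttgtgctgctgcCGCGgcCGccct
Foxn3 (chr12:99450075-99450324, minus strand): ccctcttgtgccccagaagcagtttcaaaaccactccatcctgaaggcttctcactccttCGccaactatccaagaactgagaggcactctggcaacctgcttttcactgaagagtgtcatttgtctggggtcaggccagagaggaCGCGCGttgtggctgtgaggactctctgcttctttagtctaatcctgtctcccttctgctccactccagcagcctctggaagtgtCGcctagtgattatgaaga
The stretches of Foxd3 and Foxo3 held 21 and 31 CpG, that of Foxd1 held 12, and that of Foxn3 held 5.

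Most forkhead genes were silent in both libraries. The libraries were quantile-normalized, and a gene was called expressed when its mean normalized FPKM was at least 2, silent but measured from 0.1 to under 2, and under the filter below 0.1. By these limits 13 of the 44 members were expressed, 13 were silent but measured, and 18 were under the filter. The expressed share was 29.5% of forkhead genes and 39.2% of all symbols. In each library separately, 12 members reached a normalized FPKM of 2 in both, 30 stayed under it in both, Foxk1 crossed it upward and Foxo1 crossed it downward. Both of these lay near the limit, at 1.79 and 2.28 FPKM for Foxk1 and at 2.14 and 1.41 FPKM for Foxo1.

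The summed level of all members was 128 FPKM in WT and 136 FPKM in the library labelled Eed-/-. The 13 expressed genes held 91.4% and 93.3% of these sums. The 3 highest genes of each library held 38.1% in WT, where they were Foxo4, Foxh1 and Foxn2, and 44.7% in the other library, where they were Foxh1, Foxn2 and Foxo4. Foxh1 stood second in WT and first in the library labelled Eed-/-.

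**Figure D1:**
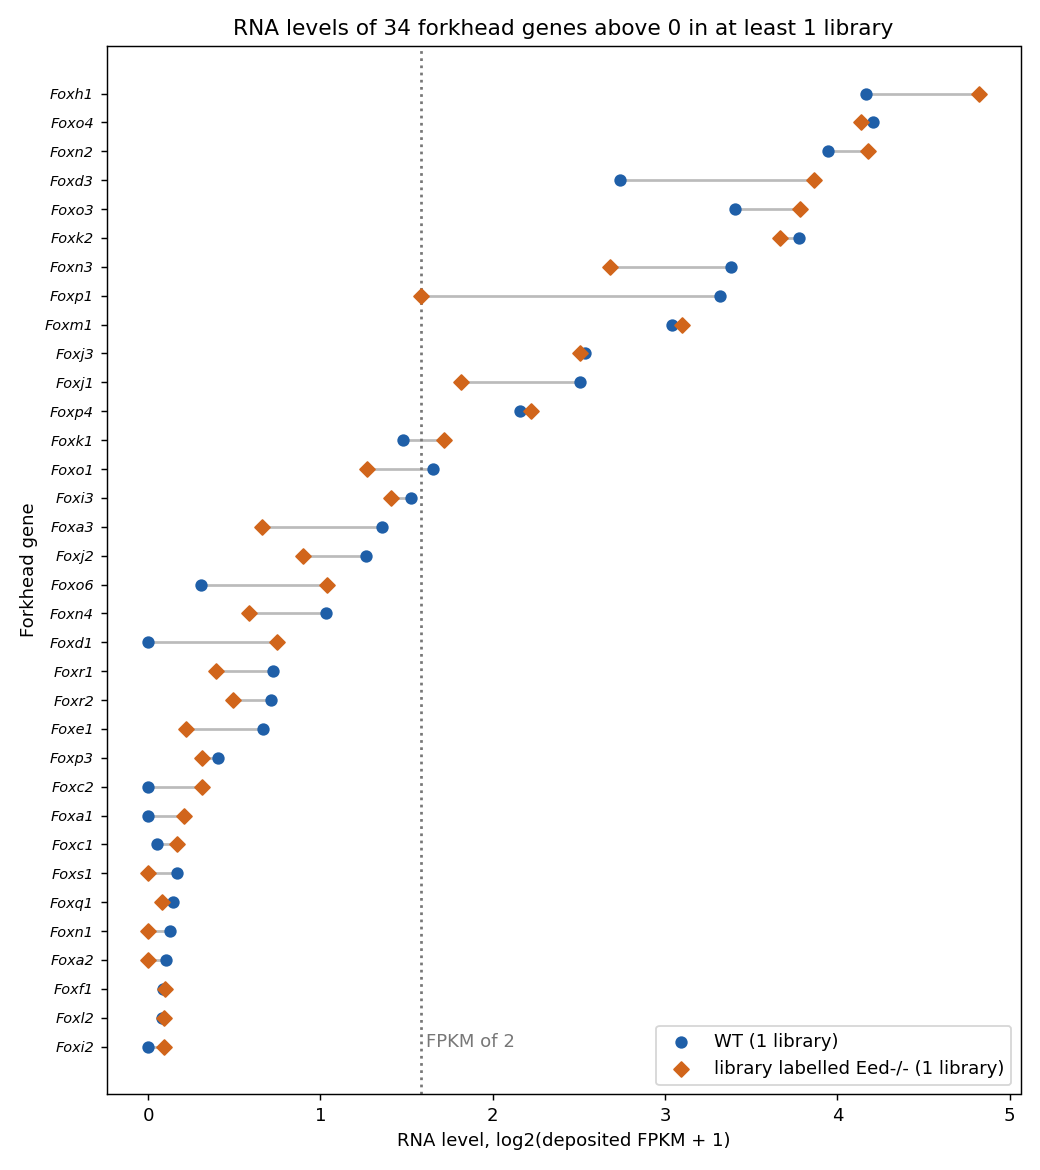
RNA level as log2(deposited FPKM + 1) on the horizontal axis for 34 forkhead genes above 0 in at least 1 library, with WT as blue circles and the library labelled Eed-/- as orange diamonds, 1 library each. Foxp1 and Foxd3 have the longest connecting lines among genes right of the dotted line at an FPKM of 2, and genes of under 0.1 FPKM on average crowd at the left edge.

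Changes were computed as the difference in log2(normalized FPKM + 1), the library labelled Eed-/- minus WT, a scale that understates the change of low genes. Of the 26 measured members 1 was at least 2-fold higher, against 3.8% of 14835 measured genes, and 1 was at least 2-fold lower, against 3.98% of those genes. The member past the threshold upward was Foxd3 and the member past it downward was Foxp1. Each is 3.85% of the measured members, a share close to that of all genes. The median change was 0.06 over the 26 members and 0.01 over all measured genes.

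The medians of expressed and silent members lay on different sides of 0, with intervals that overlapped. Among the 13 expressed members, 10 were higher in the library labelled Eed-/- and 3 were lower, with a median change of 0.15 (95% order-statistic interval −0.56 to 0.51 over genes). Among the 13 silent but measured members, 4 were higher and 9 were lower, with a median of −0.20 (−0.42 to 0.46). The corresponding medians over all genes were 0.01 for 9408 expressed genes and 0.01 for 5427 silent ones, of which 50.9% and 51.0% were higher. Of the 10 higher expressed members, Foxj3, Foxk2 and Foxo4 turned negative with the FPKM as deposited. Both forkhead intervals hold 0, so the medians of expressed and silent members were not separated by the spread among the genes. The silent median became 0.11 over 6 genes when the expressed level was set at 0.5.

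**Figure D2:**
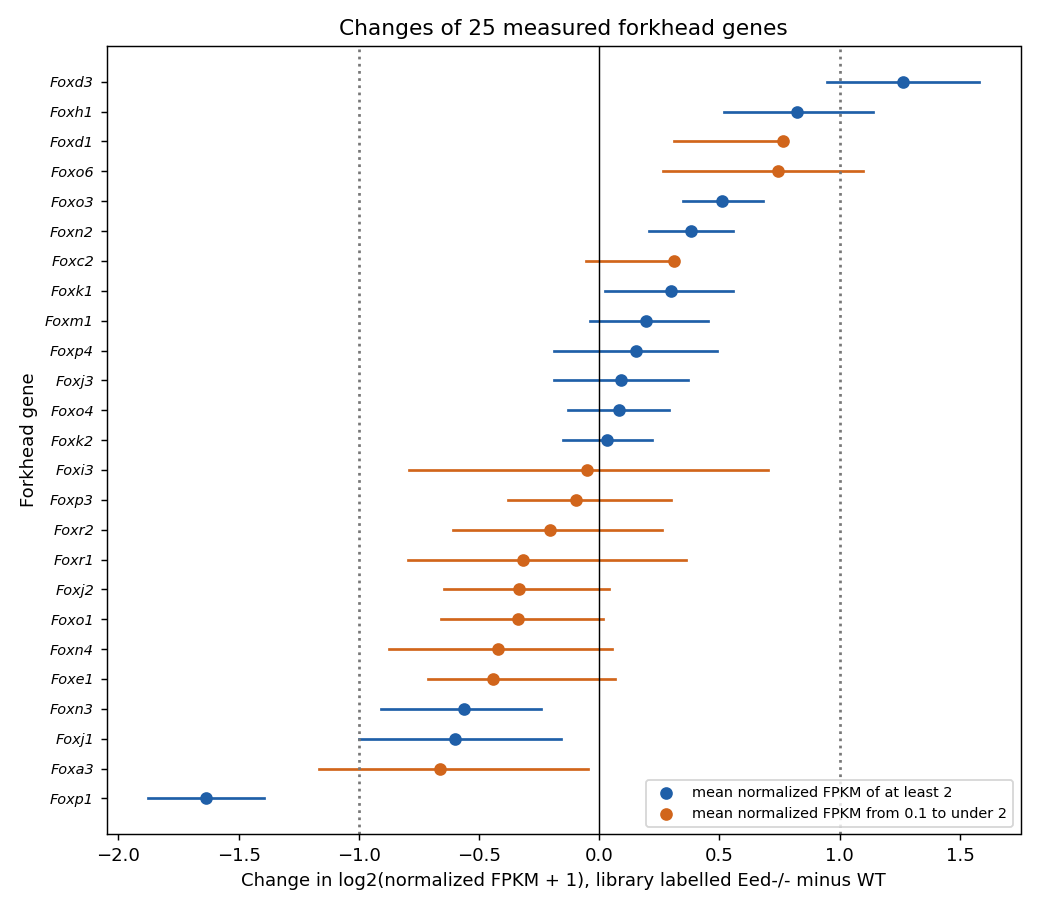
Change in log2(normalized FPKM + 1), the library labelled Eed-/- minus WT, for 25 measured forkhead genes, with expressed genes in blue and silent ones in orange. Bars are 95% intervals of counting error alone, dotted lines mark 2-fold, and Foxd3 at 1.26 and Foxp1 at −1.64 are the genes beyond those lines.

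Foxd3 and Foxh1, expressed members that act in the pluripotent epiblast and in the first embryonic signals, were both higher. Foxp1 and Foxo1, which are also linked to pluripotency and are described below, were lower, and the interval of Foxo1 held 0. Foxd3, a repressor of differentiation genes that embryos need to keep the epiblast, stood at 5.67 FPKM in WT and 13.6 FPKM in the library labelled Eed-/-, from about 90.1 and 192 fragments. Its change was 1.26 (0.95 to 1.58 by counting error). Foxd3 is a gene with 1 exon at chr4:99322990-99325362 on the plus strand (NCBIM37, also called mm9, as for all gene positions here), and it is on the study's list of mESC DMV genes. The next protein-coding gene downstream, Alg6, lies 56993 bp away and stood at 4.86 and 3.38 FPKM (change −0.33).

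Foxh1, the DNA-binding partner of SMAD2 and SMAD3 in the response to Nodal, stood at 17.0 and 27.3 FPKM, from about 138 and 198 fragments. Its change of 0.82 (0.52 to 1.14) lay under 2-fold. The gene lies at chr15:76498714-76500378 on the minus strand and is also on the DMV list.

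The FOXO factors, which respond to insulin and stress signals and drive genes for cell-cycle arrest and antioxidant defence, did not move together. Foxo3 stood at 9.60 and 12.8 FPKM with a change of 0.51 (0.35 to 0.68), and it is an mESC DMV gene at chr10:41901647-41996561 on the minus strand. Foxo4, the highest member in WT, stood at 17.4 and 16.6 FPKM with a change of 0.08 (−0.13 to 0.29). Foxo4 lies on the X chromosome, where the median change of 518 measured genes was 0.46, and it stayed below that median. Foxo1, which maintains pluripotency genes in embryonic stem cells and is also on the DMV list, stood at 2.14 and 1.41 FPKM with a change of −0.34 (−0.66 to 0.02). Foxo6, the brain-enriched member, was low in both libraries, at 0.236 and 1.06 FPKM, with a change of 0.75 (0.26 to 1.10) from about 4.15 and 16.6 fragments. Foxo3 and Foxo6 thus had counting intervals above 0, while those of Foxo1 and Foxo4 held 0. With the FPKM as deposited, however, the counting interval of the Foxo1 ratio, 0.456 to 0.954, lay below 1.

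The FOXP factors, repressors with a zinc finger and a leucine zipper beside the forkhead domain, spanned the widest range of changes of the subfamilies. Foxp1, which has a splice form that favours pluripotency in embryonic stem cells, stood at 8.96 FPKM in WT and 1.99 FPKM in the library labelled Eed-/-. This was the largest decrease of the family, with a change of −1.64 (−1.88 to −1.39) from about 443 and 87.9 fragments, numbers that are approximate because the gene has 16 annotated transcripts. Foxp1 spans chr6:98875332-99216526 on the minus strand in 18 exons and is on the DMV list. The tables hold 1 value for the gene, so its splice forms could not be told apart.

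Neighbours of Foxp1 had too few reads in WT to show a decrease like that of Foxp1. Eif4e3, which overlaps it on the same strand in the annotation, stood at 0.178 and 0.266 FPKM, and the next protein-coding gene toward higher coordinates, Gpr27, at 0.287 and 0.322 FPKM, while Gm765 on the other side was at 0 in both. Foxp4, a paralogue expressed in many epithelia and also a DMV gene, stood at 3.46 and 3.66 FPKM, with a change of 0.15 (−0.19 to 0.49). Foxp3, the factor that defines regulatory T cells, was low at 0.327 and 0.241 FPKM on the X chromosome, with a change of −0.10, and it overlaps Ccdc22 and Ppp1r3f on the opposite strand. Foxp2, known for its part in speech and vocal learning, was listed at 0 in both libraries. Of the 4 members, Foxp1 was therefore the one with a counting interval apart from 0.

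Among FOXN genes the 2 expressed members went in opposite directions. Foxn2 stood at 14.4 and 17.1 FPKM with a change of 0.38 (0.21 to 0.56). Foxn3, a repressor linked to the DNA-damage checkpoint, stood at 9.44 and 5.42 FPKM with a change of −0.56 (−0.91 to −0.24), at chr12:100433213-100688284 on the minus strand. The intervals of Foxn2 and Foxn3 lay on either side of 0 and did not overlap. Foxn4, a gene of retinal progenitors, stood at 1.04 and 0.500 FPKM (change −0.42, −0.87 to 0.05). Foxn1, the master gene of the thymic epithelium, was at 0.0898 FPKM in WT and at 0 in the library labelled Eed-/-.

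The FOXJ genes hold 1 ciliary factor and 2 broadly expressed ones. Foxj1, which switches on the genes of motile cilia, stood at 4.67 and 2.52 FPKM with a change of −0.60 (−1.001 to −0.16), at chr11:116192018-116196713 on the minus strand. Foxj2 was also lower, at 1.40 and 0.866 FPKM with a change of −0.34, but its interval of −0.65 to 0.04 held 0. Foxj3 stood at 4.79 and 4.68 FPKM with a change of 0.09 (−0.19 to 0.37), which turned negative with the FPKM as deposited.

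The FOXK and FOXM genes, which are made in most dividing cells, had changes from 0.03 to 0.30. Foxk1 and Foxk2 repress autophagy genes and bind the deubiquitinase BAP1. Foxk1 stood at 1.79 and 2.28 FPKM with a change of 0.30 (0.03 to 0.56), and Foxk2 at 12.7 and 11.7 FPKM with a change of 0.03 (−0.15 to 0.22). Narf, which overlaps Foxk2 on the same strand in the annotation, was 3.40 FPKM in WT and 8.06 FPKM in the library labelled Eed-/-, so reads from the shared part could have been assigned to either gene. Foxm1, the activator of genes for mitosis, stood at 7.21 and 7.55 FPKM with a change of 0.20 (−0.04 to 0.45). The changes of Foxk2 and Foxo4 also turned negative with the FPKM as deposited.

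Over the 13 expressed genes, the counting interval lay above 0 for 5 (Foxd3, Foxh1, Foxo3, Foxn2 and Foxk1), against 30.5% of 8633 expressed genes with an interval. It lay below 0 for 3 (Foxp1, Foxj1 and Foxn3), against 28.9% of those genes, and it held 0 for 5. These counts are near the shares over all expressed genes, and the spread between cultures of 1 genotype is unknown. With the FPKM as deposited, the counting interval of the Foxk1 ratio, 0.959 to 1.70, held 1, so its place among the 5 depends on the normalization.

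A few lineage genes had more reads in the library labelled Eed-/-. Foxd1, a gene of kidney stroma and retina, was listed at 0 in WT and stood at 0.679 FPKM in the other library, from about 10.0 fragments. For comparison, 3 fragments, the most that a count of 0 allows, would stand for 0.182 FPKM of this gene in WT. Its change was 0.76 with a lower bound of 0.31, at chr13:99124200-99126660 on the plus strand. Foxc2, a DMV gene of mesenchyme and lymphatic vessels at chr8:123640071-123642792, was listed at 0 in WT and stood at 0.244 FPKM in the library labelled Eed-/-, from about 4.00 fragments. Its change of 0.31 had a lower bound of −0.06, so the interval holds 0, on a chromosome where the median change of 702 measured genes was −0.38.

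Foxd1 and Foxc2 passed the filter through the library labelled Eed-/- alone, so their direction was set by that filter. Both genes stayed under an FPKM of 1, below the expressed level of 2.

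Other silent members were mostly lower. Foxa3, the FOXA member of liver and gut, stood at 1.56 and 0.583 FPKM with a change of −0.66 (−1.17 to −0.05), from about 21.0 and 6.99 fragments, at chr7:19598631-19608887 on the minus strand. On the normalized scale it was the 1 silent forkhead gene with a counting interval below 0. Foxe1, a factor of the thyroid, stood at 0.588 and 0.165 FPKM (change −0.44), and the interval of −0.71 to 0.07 held 0. Foxr1 stood at 0.650 and 0.313 FPKM (change −0.32), and Foxr2, on the X chromosome, at 0.640 and 0.409 FPKM (change −0.20). Foxi3, a gene of the ectodermal placodes, was nearly level at 1.88 and 1.66 FPKM (change −0.05, −0.79 to 0.70). In all, 3 silent members, with Foxd1 and Foxo6 among them, had intervals above 0, against 14.6% of 4775 silent measured genes. The interval lay below 0 for 1, against 12.4% of those genes, and held 0 for 9. Some of the 3 with intervals above 0, Foxd1 among them, passed the filter through the library labelled Eed-/- alone, so no excess is read from that count.

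The 18 members under the filter held few or no reads. The 9 listed at 0 in both libraries were Foxb1, Foxb2, Foxd2, Foxd4, Foxe3, Foxf2, Foxi1, Foxl1 and Foxp2. For a count of 0, the same approximate limit of 3 fragments would stand for 0.0630 to 0.520 FPKM of these genes in WT. In the other library it would stand for 0.0707 to 0.584 FPKM, for counting error only. The 9 genes act in the hypothalamus, lens, inner ear, gut mesenchyme and other organs.

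Foxa1 and Foxa2, pioneer factors of the endoderm, stood at 0 and 0.155 FPKM and at 0.0731 and 0 FPKM in WT and the library labelled Eed-/-. The value of Foxa1 rests on about 3.00 fragments. Foxc1, the paralogue of Foxc2, stood at 0.0363 and 0.122 FPKM, from 1.00 and 3.00 fragments. These 3 genes were therefore at the level of single reads. Foxf1, a gene of visceral mesenchyme, stood at 0.0616 and 0.0690 FPKM. Foxl2, which maintains the ovary, stood at 0.0591 and 0.0662 FPKM, and Foxq1 at 0.105 and 0.0590 FPKM. Foxi2 was at 0 and 0.0643 FPKM and Foxs1 at 0.122 and 0 FPKM. None of these values exceeds a few fragments, and no direction can be read from them.

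Members were also described by their exon number and position. Of the 44 members, 13 have 1 exon in the annotation used, and 1 of these, Foxd3, was expressed. Of the 31 members with more exons, 12 were expressed. Over all protein-coding genes matched, 9.20% of 1946 genes with 1 exon and 48.7% of 17158 with more were expressed, a difference in the same direction. The median change was 0.46 over the 5 measured members with 1 exon, 4 of them higher, and −0.05 over the 21 others, 10 of them higher. Since some of the 5 passed the filter through the library labelled Eed-/- alone, no direction is read from their median. The 3 nearby groups on the chromosomes were silent as wholes: Foxf1, Foxc2 and Foxl1 on chromosome 8 with gaps of 29220 and 9048 bp, Foxd2 and Foxe3 on chromosome 4 with a gap of 16178 bp, and Foxf2 and Foxq1 on chromosome 13 with a gap of 64846 bp. Within these groups Foxc2 was the gene that passed the filter.

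The study's list of mESC DMV genes held 18 of the 44 members. Of these, 5 were expressed, 3 were silent but measured and 10 were under the filter, against 8, 10 and 8 of the 26 members not on the list. The expressed share was thus 27.8% on the list and 30.8% off it. The median change was 0.39 over the 8 measured members on the list, 6 of them higher, and −0.07 over the 18 others, 8 of them higher. Over all measured genes 50.9% were higher. Some of the 8, Foxc2 among them, passed the filter through the library labelled Eed-/- alone, so no direction is read from their median. Both genes past 2-fold, Foxd3 and Foxp1, were on the list, in opposite directions. Since the list was drawn by the study from mESCs, and the members on it were few, no test was made.

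Promoter windows in RefSeq (GRCm38.p6), from 250 bases before to 50 after the start site, were matched for 28 of the 44 members. The median number of CpG per 300-base window was 22 over these members and 7 over 27025 symbols, and 53.6% of the members held at least 20, against 26.3% of all symbols. By level, the medians were 33 for 7 expressed members, 22 for 9 silent but measured ones and 12.5 for 12 under the filter. The ranges overlapped, from 6 to 59 in the expressed members and from 5 to 32 under the filter. Foxk2 had 59 CpG, the most of the 28, and Foxr2 had 3, the fewest. Members on the DMV list had a median of 26.5 (n = 12) and the others 15.5 (n = 16). Windows with many CpG occurred among both higher and lower measured genes, and those with the fewest were of lower genes. Among higher genes Foxk2 had 59 CpG in its whole window, Foxj3 42, Foxo3 35, Foxp4 33, Foxd3 25 and Foxd1 15. Among lower genes Foxj2 had 37, Foxo1 31, Foxa3 22, Foxp1 13, Foxn3 6 and Foxr2 3. The changes of Foxk2 and Foxj3 turned negative with the FPKM as deposited, and whether CpG number goes with direction was not tested.

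**Figure D3:**
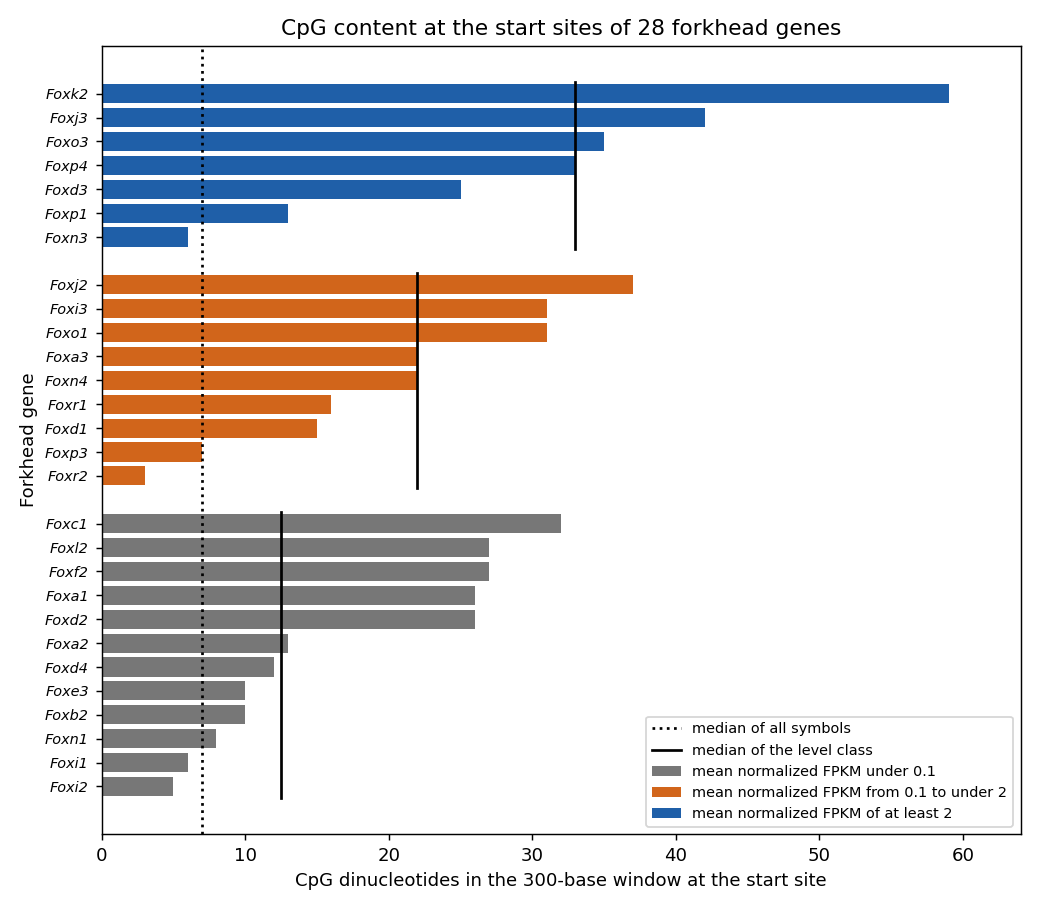
Number of CpG dinucleotides in the 300-base window around the start site of 28 forkhead genes, 1 bar per gene (the median over windows where a gene has several), grouped by RNA level. Solid lines mark the medians of 33, 22 and 12.5, the dotted line the median of 7 over all symbols, and the bars of the groups overlap.

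The forkhead consensus TGTTTAC was searched in the same windows on both strands, as TGTTTAC and GTAAACA, without another motif. It was found in 1 of the 28 members, Foxa1, on the reverse strand with the first base at position −141 from the start site. Over all 27025 symbols 4.05% had a match, so 1 of 28 is close to that share.

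Partners and targets of the factors were described by lists of known genes. The lists were chosen with earlier results of these data known, so their counts beside all genes are description only. The 14 measured genes of the FOXH1 and Nodal list had a median change of 0.31, with 4 at least 2-fold higher and none lower, beside 3.8% and 3.98% of all measured genes. Lefty2, a secreted inhibitor of Nodal that FOXH1 activates, stood at 25.2 and 86.5 FPKM with a change of 1.95 (1.80 to 2.13). Gsc of the organizer and Eomes of the primitive streak, also past 2-fold, stayed under an FPKM of 2, at 0.415 and 1.87 FPKM and at 0.478 and 1.93 FPKM. They rest on about 3.26 and 13.1 fragments for Gsc and 11.7 and 42.1 for Eomes.

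The ligand Nodal itself stood at 20.1 and 28.1 FPKM with a change of 0.64 (0.43 to 0.86), in the same direction as Foxh1. The co-receptor Tdgf1 stood at 125 and 102 FPKM, the receptor Acvr2b was lower at 7.17 and 3.77 FPKM (change −0.67), and Lefty1 stood at 31.2 and 32.7 FPKM (change 0.26). Cer1 was listed at 0 in both libraries. The receptor Acvr1b stood at 7.60 and 6.85 FPKM (change 0.02, −0.28 to 0.30), so none of the receptors and co-receptors on the list was higher beyond counting error.

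The FOXD3 and pluripotency list had a median change of 0.24 over 8 genes, of which Zfp42, a marker of naive pluripotency, was past 2-fold at 131 and 272 FPKM (change 1.30). Nanog and Klf4 were higher by 0.86 and 0.99, Pou5f1 differed by 0.14, and Utf1 by −0.38. Most genes of this list are also among the embryonic stem cell markers above.

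The FOXO targets had a median of −0.18 over 15 genes, with 1 past 2-fold lower. This was Gadd45a, a growth-arrest gene, at 43.1 and 10.8 FPKM (change −1.73, −2.09 to −1.39). Bcl2l11, which encodes the death factor BIM, was lower at 6.08 and 3.25 FPKM (change −0.63), and the antioxidant genes Cat and Sod2 had changes of −0.35 and −0.23. Klf2 and Txnip lay above 0, with changes of 0.40 (0.24 to 0.56) and 0.31 (0.15 to 0.47). The median of these targets was below 0. Among the FOXO genes, Foxo3 and Foxo6 were higher, Foxo1 was lower, and the intervals of Foxo1 and Foxo4 held 0.

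In the other lists few genes passed 2-fold. The 10 FOXM1 targets had a median of 0.09 with none past 2-fold, and Birc5, the inhibitor of apoptosis survivin, had the largest change, 0.83, at 122 and 181 FPKM. The FOXA and endoderm list had a median of 0.45 over 6 measured genes with none past 2-fold, among them Gata4 at 0.431 and 1.35 FPKM and Sox7 at 0.314 and 1.15 FPKM. Hnf4a of the same list went the other way, at 0.530 and 0.0371 FPKM (change −0.56, −0.63 to −0.25). Its Gata4, Gata6, Sox7 and Sox17 are also endoderm markers in the sums above, and Ttr, Afp and Apoa1 were at 0 in both libraries. The FOXJ1 and cilium list had a median of 0.12 over 6 genes, and Rfx2, a regulator of ciliary genes, was past 2-fold at 3.71 and 8.81 FPKM (change 1.17) while Foxj1 was lower. The 7 measured FOXP and FOXK partners had a median of 0.04 with none past 2-fold, Dvl2 having the largest decrease at 30.2 and 13.6 FPKM (change −0.93).

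**Figure D4:**
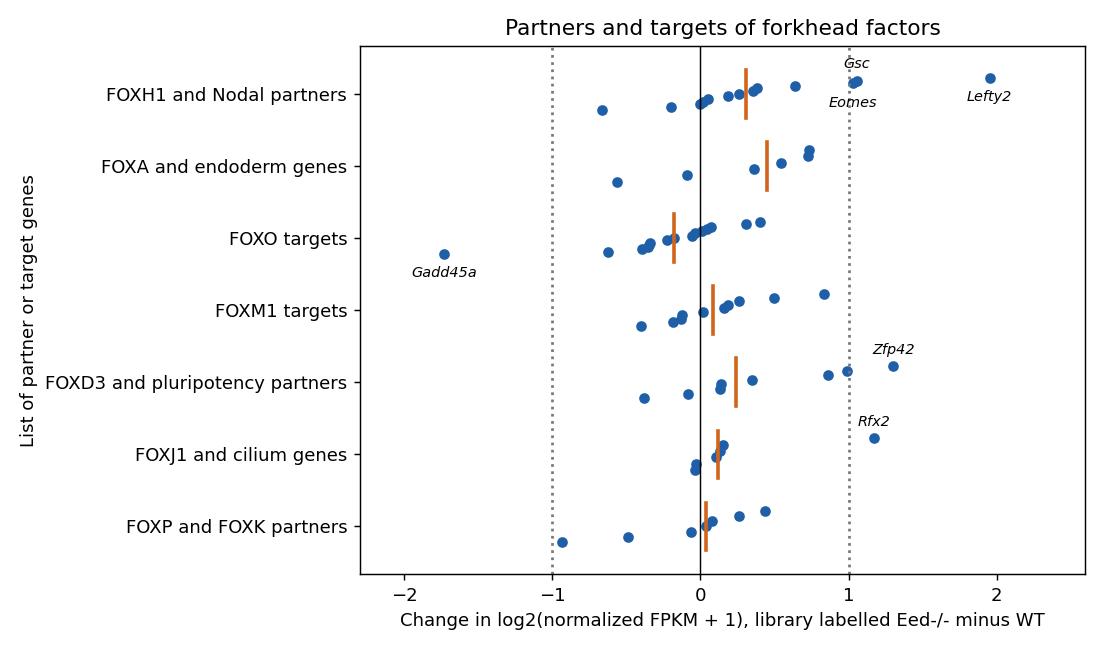
Change in log2(normalized FPKM + 1), the library labelled Eed-/- minus WT, for genes of 7 lists of partners and targets of forkhead factors, 1 point per gene. Orange lines are list medians, dotted lines mark 2-fold, genes beyond them are named, and 3 of the 13 points drawn for the FOXH1 and Nodal list lie right of 1.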

How the data were processed

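The data were RNA-seq of mESCs, 1 WT and 1 Eed-/- sample. The authors made strand-specific libraries from total RNA after removal of ribosomal RNA. According to the submitters' notes, TopHat2 2.0.11 and Cufflinks 2.2.1 were used with mm9, and the annotation was not given in the sources used here. The authors deposited FPKM values, 1 or more per symbol. ChIP-seq, bisulfite and 4C samples were not analysed here.

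Values of repeated symbols were summed, which touched no member. The libraries were quantile-normalized with values of 0 kept, and a gene was kept when its mean over the normalized libraries reached 0.1 FPKM. The pseudocount was 1, the expressed level 2 and the threshold 2-fold. Fragment numbers were recovered from 4754 genes with a single transcript that is 1000 bp or longer, after subtracting 180 bp from its length. They are approximate for genes with several transcripts, and for members with 1 transcript 12 of 14 low values lay within 0.1 of a whole number. With 1 library per genotype, no test was made.

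Members and lists were chosen with earlier results of these data known. Named were all expressed members, members past 2-fold, the 8 largest rises and the 8 largest falls, members at 0 in both libraries, and the rest by subfamily. Some genes that enter the counts and medians are not reported here by name or drawn. Symbols starting with Fox that miss the rule are named as outside it. The marker lists and the 7 partner lists are given in full by count, and Sds3 of the FOXP and FOXK list was not analysed here. The list of mESC DMV genes was taken from the study's supplement by name.

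Positions came from GENCODE vM1 on NCBIM37, where Foxf1 is named Foxf1a and Foxl1 is annotated as a pseudogene. The 43 protein-coding members each aligned to 1 place in the genome at 80% cover and 95% identity (minimap2 2.31), so no near-identical copy was found at these limits. Promoter windows came from RefSeq, and protein sequences were not used here. The computations were tested on simulated data. Alternatives were other scalings, pseudocounts, filters, thresholds and expressed levels. Computations ran in Python 3.11.15 with scipy 1.17.1, pandas 2.3.3 and numpy 2.4.6, and plots in matplotlib 3.10.9.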

Additional observations from a re-analysis of the deposited data

How the results depend on the processing

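No paired analysis was possible because each genotype had 1 RNA-seq library. The pseudocount had the largest effect. With a pseudocount of 0.1 or 0.01 the median change of silent forkhead genes was −0.50 or −0.53 instead of −0.20, 5 genes instead of 1 were at least 2-fold higher at either value, and 3 or 4 instead of 1 were at least 2-fold lower, while 11.4% and 12.0% of all measured genes passed 2-fold upward and downward at 0.1. A 1.5-fold threshold gave 4 higher and 3 lower genes, against 12.3% and 12.4% of all measured genes, and a 3-fold threshold gave 0 higher and 1 lower, against 1.02% and 0.923%. Foxd3 and Foxp1 passed 2-fold with quantile normalization, with the FPKM as deposited and with median-ratio scaling. The FPKM as deposited shifted the median of all genes to −0.09 and that of the 26 forkhead genes to −0.08. Of 22 named genes, Foxj3, Foxk2 and Foxo4 changed sign under that setting, and none did under another pseudocount. Leaving out members on chromosomes 8 and X gave medians of 0.17 for expressed and −0.33 for silent genes. Levels of a few fragments, and the spread between cultures, are beyond what 1 library per genotype can resolve.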

Other observations

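A few symbols beginning with Fox miss the rule for the family. The antisense genes Foxd2os and Foxl2os were listed at 0 in WT and at 0.0575 and 0.0436 FPKM in the library labelled Eed-/-. Foxred1 and Foxred2, which encode oxidoreductase-like proteins and no forkhead factors, stood at 13.1 and 11.2 FPKM and at 5.30 and 2.35 FPKM, with changes of −0.06 and −0.81.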
